A study of Mus musculus with 2 samples.

Results

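The genes described here are 5 adult globins, the alpha globins Hba-a1 and Hba-a2 and the beta globins Hbb-bt, Hbb-bs and Hbb-b2, together with Alas2, the red cell form of the first enzyme of haem synthesis. Every array probe whose RefSeq accession belonged to one of these genes was taken, which gave 1 probe at 1 spot for each gene, 6 of 55681 non-control probes and 6 of 20660 genes with a symbol. The genes were chosen with their difference between the arrays already known, so their values are a description and no test is attached to them. Total RNA of lung epithelial cells was labelled with Cy3 and hybridised to Agilent 1-colour oligonucleotide arrays. The array labelled Mob1DKO and the array labelled WT both came from mice of strain C57BL/6 aged 10 weeks, and each genotype has 1 array. The labels do not spell out Mob1DKO, which is taken here, from background knowledge, to mean a double knockout of Mob1a and Mob1b, adaptor proteins of the Hippo pathway. The cells in which the alleles were deleted, the number of mice behind each RNA and the way the epithelial cells were isolated are not stated in the labels.

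Haemoglobin carries oxygen in red cells as a tetramer of alpha and beta chains, each of which holds a haem group. Alpha and beta globin genes lie in separate clusters, on different chromosomes, and are transcribed at very high rates in erythroid precursors under factors such as GATA1 and KLF1, while ALAS2 supplies haem there. Reticulocytes, the youngest red cells in blood, have lost their nucleus but still carry globin mRNA, and globin mRNA has also been described in alveolar type 2 cells of the lung. In C57BL/6 mice the adult beta chains come from Hbb-bs and Hbb-bt, whereas Hbb-b1 and Hbb-b2 are the beta genes of other strains and resemble them closely. The letters of the probes are not in the files used here, so signal from near-identical copies cannot be divided among Hba-a1 and Hba-a2, or among Hbb-bt, Hbb-bs and Hbb-b2. The globin probes are therefore not independent measurements, and the Hbb-b2 probe in C57BL/6 mice may read the other beta genes. No probe was matched to Hbb-b1.

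The promoters of 5 of the 6 genes are in the RefSeq-based table of build GRCm38.p6 (all but Hbb-b2), and 4 are shown because they let the members be compared by the sequence before their start sites. Each line gives the 250 bases before the annotated start, 5' to 3' on the strand of the gene, with capitals marking every match, on either strand, to the GATA motif, the CACCC box, the CCAAT box or the TATAA box (matches may overlap or abut).
Hba-a1 (chr11:32283422-32283671, plus strand): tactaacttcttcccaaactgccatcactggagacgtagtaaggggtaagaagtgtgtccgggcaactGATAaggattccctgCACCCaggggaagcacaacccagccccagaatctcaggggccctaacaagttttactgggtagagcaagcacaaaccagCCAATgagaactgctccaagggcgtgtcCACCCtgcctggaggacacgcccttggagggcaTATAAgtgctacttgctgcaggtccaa
Hbb-bt (chr7:103813924-103814173, minus strand): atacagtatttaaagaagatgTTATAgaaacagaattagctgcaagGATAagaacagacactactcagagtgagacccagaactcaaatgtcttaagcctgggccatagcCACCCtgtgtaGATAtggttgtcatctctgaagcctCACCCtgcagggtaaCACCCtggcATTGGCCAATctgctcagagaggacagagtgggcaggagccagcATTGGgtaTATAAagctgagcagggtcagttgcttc
Hbb-bs (chr7:103827929-103828178, minus strand): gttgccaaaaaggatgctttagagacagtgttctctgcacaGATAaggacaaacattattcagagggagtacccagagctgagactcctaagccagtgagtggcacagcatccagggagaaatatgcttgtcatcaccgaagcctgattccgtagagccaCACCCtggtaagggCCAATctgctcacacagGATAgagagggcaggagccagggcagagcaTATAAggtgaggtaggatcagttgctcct
Alas2 (chrX:150547167-150547416, plus strand): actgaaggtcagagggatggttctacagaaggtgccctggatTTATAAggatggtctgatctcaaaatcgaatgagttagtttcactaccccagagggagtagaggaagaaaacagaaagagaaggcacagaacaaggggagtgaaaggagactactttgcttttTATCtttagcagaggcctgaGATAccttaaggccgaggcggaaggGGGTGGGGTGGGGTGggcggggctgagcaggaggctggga

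The 250 bases before Hba-a2 (chr11:32296242-32296491, plus strand) aligned to those of Hba-a1 with 247 identical bases, 0 mismatches and gaps only, so the alpha promoters differ in where the annotated start is placed. The beta promoters of Hbb-bt and Hbb-bs were 70.9% identical over the aligned columns. All 5 promoters held the GATA motif and the CACCC and TATAA boxes, and 4 held the CCAAT box, which was not found before Alas2. Among all 32851 promoter windows of this length, the GATA motif was found in 53.6%, the CACCC box in 52.0%, the CCAAT box in 33.8%, the TATAA box in 22.8% and all 4 together in 2.15%. In the 4 globin promoters a TATAA match began 27 to 30 bases before the start, whereas in Alas2 its overlapping matches began 207 and 208 bases before it. These matches are letters only and were not tested as binding sites.

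The 75th percentile of the processed signal over non-control probes was 291 for Mob1DKO and 155 for WT, and neither array had a saturated spot. Levels below are log2 of the processed signal minus this percentile, and differences are Mob1DKO minus WT. A probe that the scanner software flags as well above background is termed detected. A gene was called lower or higher at a 2-fold difference if it was detected on the brighter array. The epithelial identity of both preparations was checked on 15 markers, all of which were detected on both arrays and none of which was called, with a median difference of -0.13 (-0.84 to 0.65). Of the targeted genes, Mob1b had levels of -2.98 (Mob1DKO) and -0.98 (WT), and Mob1a of -2.49 and -2.56. Where these probes lie relative to the deleted parts is not stated, so they check the labels only in part.

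Globin signal was lower on the Mob1DKO array. All 5 globins were called lower and none higher, and all were detected on the WT array. On the Mob1DKO array the alpha globin probes were detected and the beta globin probes were not well above background. Of the 15099 genes detected on 1 or both arrays, 2.91% were called lower and 3.79% higher by the same rule. The globins were chosen from this contrast, and the 3 beta globins passed the detection filter through the WT array alone, where they are brighter. Nothing is therefore read from that gap. With detection on both arrays required, the 2 alpha globins remained and were called lower. Of the 13866 genes so detected, 1.43% were called lower and 1.25% higher. With the beta globins at their bounds (explained with Hbb-bt, and taken without measurement error), the median difference over the 5 globins was -3.10 (-4.28 to -1.69). The median of the differences as measured was -3.61, which is the value of Hbb-bs and rests on a Mob1DKO signal that was not well above background. The median over all 15099 genes was 0.02, with an interquartile range of -0.18 to 0.22. Fewer globin-bearing cells and less globin RNA per cell cannot be told apart in bulk RNA.

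**Figure D1:**
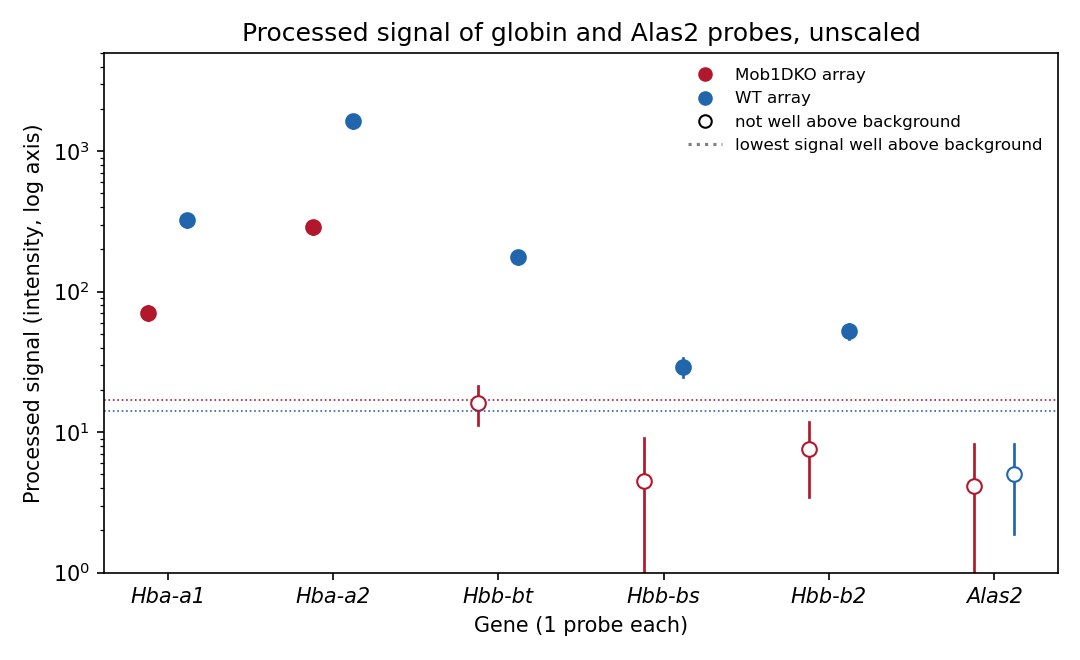
Processed signal (intensity, log axis, unscaled) of the 6 probes on the Mob1DKO array (red) and the WT array (blue), with the scanner software's error estimate as bars, which run off the axis where they reach below 1. Open points are not well above background, and dotted lines mark the lowest signal that was well above background on each array. The beta globin probes are open on the Mob1DKO array only and Alas2 is open on both. Heights are comparable within a probe, not between probes.

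Hba-a2, an adult alpha globin gene, had a processed signal of 287 ± 29.0 in Mob1DKO and 1630 ± 163 in WT (± is the scanner software's error estimate for that spot). Its scaled levels were -0.02 and 3.39 in the same order, a difference of -3.42. Both signals were far from background: 1 of 308 negative control spots on the Mob1DKO array was as bright and none on the WT array.

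Hba-a1, the other adult alpha globin gene, had a processed signal of 70.6 ± 8.24 in Mob1DKO and 322 ± 32.4 in WT. The scaled levels of Hba-a1 were -2.04 and 1.06, a difference of -3.10 or 8.57-fold. The differences of the alpha probes were 0.32 apart, and the scanner errors of the differences were 0.22 for Hba-a1 and 0.21 for Hba-a2, so their gap is close to what these errors allow. A second estimate of technical error came from 399 probes printed at 10 spots. Among the 50 of these nearest in signal, the spot-to-spot SD of a difference was 0.15 for Hba-a1 and 0.086 for Hba-a2. Both differences exceeded these errors many times over, but neither estimate includes the spread between mice or between preparations. Among the 13866 genes detected on both, of which 1.43% were called lower and 1.25% higher, 7 were as low as Hba-a2 or lower and 11 as low as Hba-a1 or lower, each count including the gene itself. The globins were chosen with this difference known, so these ranks only describe them.

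Hbb-bt, an adult beta globin gene of C57BL/6, had a processed signal of 16.2 ± 4.96 in Mob1DKO and 176 ± 17.9 in WT. The Mob1DKO value lay just under the lowest detected signal there, 17.0, and 3 of 308 negative control spots were as bright. Its scaled levels were -4.16 and 0.18, a measured difference of -4.35, and the gene was at least 19.4-fold lower. A bound of this kind sets the WT level against the higher of the probe's own value and the lowest detected level on the Mob1DKO array, -4.10. It includes no measurement error, so "at least", here and below, is not a confidence limit.

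Hbb-b2, the beta globin gene of other strains, had a processed signal of 7.64 ± 4.19 in Mob1DKO and 52.3 ± 6.11 in WT. The scaled levels of Hbb-b2 were -5.25 and -1.57, which made it at least 5.78-fold lower. On the Mob1DKO array 5 negative control spots were as bright as this probe, and on the WT array 1 was.

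Hbb-bs, the other adult beta globin gene of C57BL/6, had the faintest globin probe relative to background, with a processed signal of 4.51 ± 4.52 in Mob1DKO and 29.2 ± 4.41 in WT. Its background-subtracted signal was -0.77 on the Mob1DKO array, where 33 of 308 negative control spots were as bright or brighter, so no globin signal was detectable there by this probe. The scaled levels were -6.01 and -2.41, and Hbb-bs was at least 3.23-fold lower. With the beta globins at their bounds, all 5 globins were still at least 2-fold lower. By that rule 2.54% of all genes measured were lower and 1.93% higher. The technical error of the dim beta probes was wide: the spot-to-spot SD among probes of like signal was 0.34 for Hbb-bt, 0.70 for Hbb-b2 and 0.93 for Hbb-bs. The bounds of the beta globins were -4.28 for Hbb-bt, -2.53 for Hbb-b2 and -1.69 for Hbb-bs, and the order among them is not resolved because a bound gives no upper limit to the size of the difference.

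**Figure D2:**
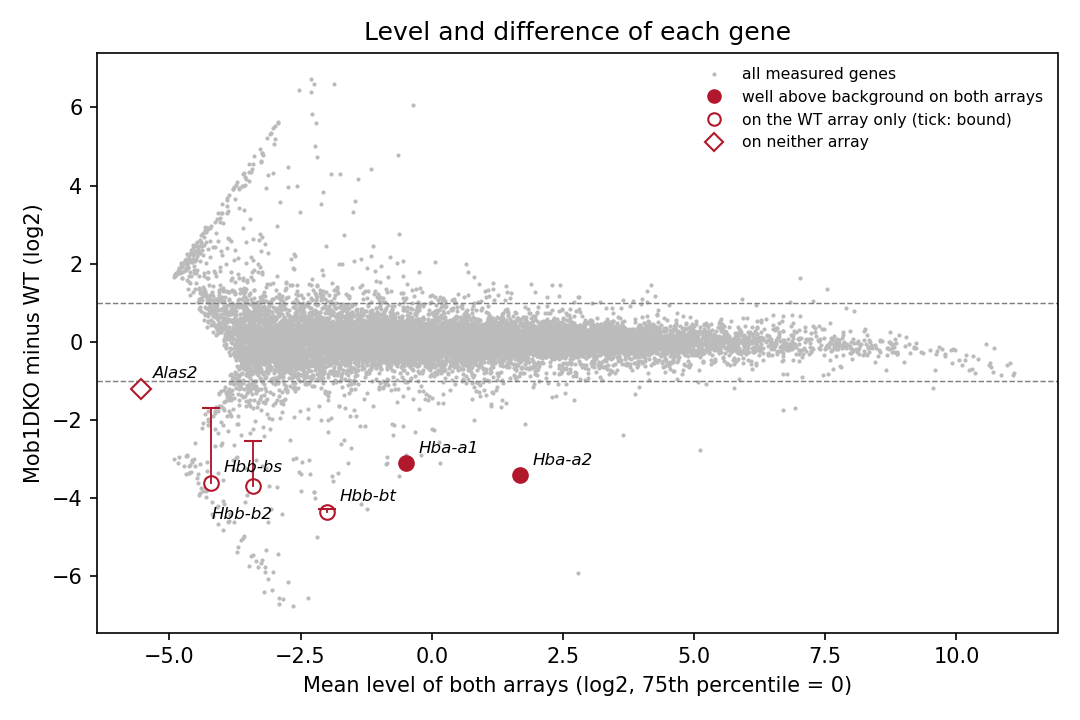
Mean level of both arrays (log2, 75th percentile of each array at 0) against the difference Mob1DKO minus WT (log2) for 15099 genes (grey), with the 6 members in red and dashed lines at 2-fold. Filled circles (Hba-a1 and Hba-a2) are detected on both arrays; open circles (beta globins) on the WT array only, with a tick at the bound; the diamond (Alas2) on neither.

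The 6 probes lie apart on the array, and none of their spots carried an outlier flag on either array. The median difference of the 76 to 92 spots within 6 rows and 6 columns of each, taken over spots detected on both arrays, ranged from -0.09 (around Hba-a1) to 0.06 (around Hbb-bt). The detected spots around the globins thus did not, as a median, share their difference. Spots not detected on both arrays were left out, so a fault limited to a few spots would not show.

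Alas2, whose product catalyses the first step of haem synthesis in erythroid cells, was detected on neither array. The processed signal of Alas2 was 4.11 ± 4.13 in Mob1DKO and 5.04 ± 3.14 in WT. Of 308 negative control spots, 28 were as bright or brighter in Mob1DKO and 4 in WT. The scaled values of -6.15 and -4.94 give no fold, since the probe was not well above background on either side, although the WT spot was flagged as positive and significant with a background-subtracted signal of 4.91. Alas2 lies on the X chromosome, and genes that differ by sex differed between these arrays: Xist, which coats the inactive X chromosome of female cells, was 4.90-fold lower in the Mob1DKO preparation, and the Y-linked Eif2s3y and Ddx3y were at least 29.6-fold and 22.7-fold higher. Xist was still detected on the Mob1DKO array, at -1.48 against 0.82 in WT, beside the Y-linked genes, and the labels do not give the sex of the mice. Sex and genotype cannot be told apart in these arrays, for Alas2 or for the globins.

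The size of the globin difference depended on how the arrays were brought to one scale, while its direction did not. The 8 detected spike-in transcripts had a median signal ratio of 2.50 in favour of the WT array, whereas the 75th percentile of Mob1DKO was 1.88-fold that of WT. Scaling on the spike-ins therefore raised every difference by 2.17 on the log2 scale and put the median of all genes at 2.19. Against the spike-ins, Hba-a1 differed by -0.93 and was no longer called, Hba-a2 differed by -1.25, and the called globins numbered 4, of which 2 (Hba-a2 and Hbb-bt) passed 2-fold with bounds; 0.603% of all genes were called lower on that scale. Relative to the median of all genes the globins had the same differences as before, since this scaling moves all genes alike. With a model-based background correction that adds an offset (normexp), Hba-a1 differed by -2.22, Hba-a2 by -2.99, Hbb-bt by -2.18, Hbb-b2 by -1.40 and Hbb-bs by -1.02, and all 5 stayed called, as were 1.15% of all genes. The bound of Hbb-bs fell short of 2-fold there. In the series value table, whose values are the submitters' processed ones, Hba-a1 stood at 53.9 in the Mob1DKO column and 464 in the WT column, Hba-a2 at 220 and 2347, and Hbb-bt at 12.5 and 256.

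**Figure D3:**
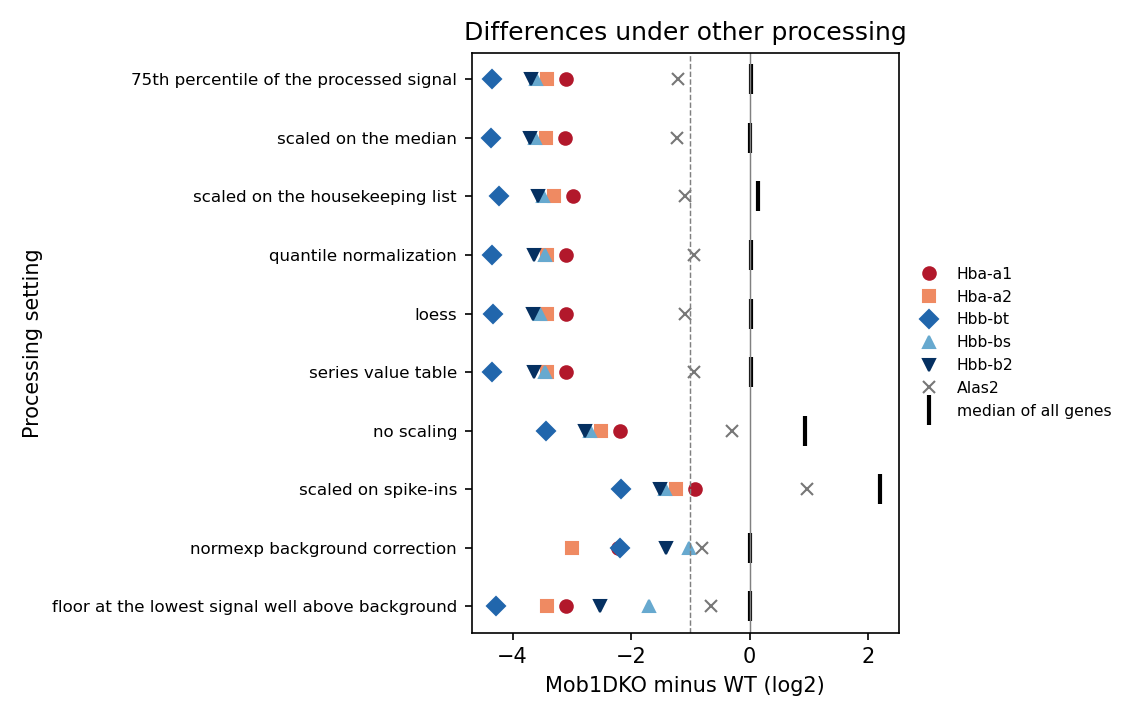
Difference Mob1DKO minus WT (log2) of each of the 6 genes (coloured symbols) under 10 settings, with the median of all measured genes as a black bar. All 5 globins lie below 0 in each; Alas2, which is detected on neither array, turns above 0 with scaling on spike-ins.

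Other genes of the globin family, of haem and of erythroid control were examined for comparison. Calls in these lists stand beside the shares over all measured genes, 2.91% lower and 3.79% higher. Of 9 further globins with a probe, 6 were undetected on both arrays: the embryonic globins Hba-x, Hbb-y and Hbb-bh1, and Hbb-bh2, Hbq1a and Hbq1b. Cygb, a globin found in many tissues outside blood, had levels of 3.01 in Mob1DKO and 2.77 in WT, and Ngb, a globin of neurons, -3.09 and -2.91. Mb, the oxygen store of muscle, was detected in Mob1DKO alone and called higher, but its bound was 1.31-fold. The median difference of these 3 measured globins was 0.24, and none was called lower.

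None of 13 haem synthesis genes other than Alas2 was called, and all 13 were detected on both arrays. Their median difference was -0.01 (-0.21 to 0.27). Alas1, the form of the enzyme used outside red cells, had levels of 6.87 in Mob1DKO and 6.85 in WT, a difference of 0.01, and Urod, a later enzyme of the same pathway, differed by -0.01. Of 15 measured genes of haem breakdown and iron handling, 1 was lower and none higher, with a median of 0.05. Aco1, a cytosolic iron sensor that also works as an aconitase, was the gene called lower, with levels of -3.12 and -0.82, or 4.93-fold, and it lost the call against the spike-ins, where it differed by -0.13. Ftl1, a ferritin subunit that stores iron, differed by -0.22, and a second, dimmer Ftl1 probe by 0.25. Hp, which binds free haemoglobin, differed by 0.19. Cd163, the macrophage receptor for haemoglobin bound to Hp, was detected on neither array.

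Among 10 measured regulators of globin genes, 1 was called higher and none lower, with a median of 0.23. Gata1, Klf1, Nfe2 and Gfi1b, all of which act in erythroid cells, were detected on neither array. Tal1, a transcription factor of blood and endothelial precursors, was detected in Mob1DKO alone, at 0.41 against -3.90, and at least 14.5-fold higher there. Bach1, a haem-binding repressor, differed by 0.27 and Myb by 0.19.

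Markers of red cells outside the globins were called in both directions, 1 gene each. Of 30 such markers, 29 had a probe and 20 were measured, of which 1 was lower (Trim58), 1 higher (Rhag) and the median difference was -0.05. Both called genes were detected on 1 array only. Over all measured genes 2.91% were called lower and 3.79% higher, and nothing is read from 1 call each way. Among the markers detected on neither array were Sptb, Ank1, Epb42, Rhd, Kel and Add2, of red cell membranes and skeletons, and Trim10. Slc4a1, the anion exchanger of red cells, had levels of -2.66 in Mob1DKO and -2.74 in WT. Rhag, a membrane protein of the Rh complex, was at least 9.45-fold higher on the Mob1DKO array. Trim58, a ubiquitin ligase of late erythroid cells, was at least 2.09-fold lower there, against the direction of Rhag. Several measured markers, such as Cat, Prdx2, Bnip3l and Epb41, are also made by many other cells. Bnip3l differed by -0.18 and Cat by 0.10. The summed scaled signal of the 20 measured markers was 132 in Mob1DKO and 139 in WT (in units of each array's 75th percentile). Most of both sums came from Cat, Prdx2, Bnip3l and Epb41, so the sums do not measure red cells alone. Hemgn, of like brightness, had levels of 3.74 in Mob1DKO and 4.27 in WT, a difference of -0.53. Among markers detected on both arrays the extremes were -0.82 (Ermap) and 0.81 (Dmtn). Of the 20 measured markers, 11 differed below 0. The part of red cells in the globin difference was not tested.

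Markers of other blood cells and of vessels were also read beside the globins. Their few calls stand beside shares over all measured genes of 2.91% lower and 3.79% higher. Of 9 measured platelet genes, 2 were lower and 2 higher, with a median of -0.06. Pf4, a platelet chemokine, was 2.25-fold lower, with levels of -1.52 and -0.35, while Itgb3, an integrin subunit of platelets and other cells, was 2.14-fold higher. Gp6 was at least 1.86-fold lower and Ppbp at least 1.06-fold higher, each by its bound. Among 8 measured neutrophil genes, S100a8, S100a9 and Mpo were called higher from faint signals, none by a bound of 2-fold, and the median was 0.08. The brightest neutrophil-list genes, Csf3r and Ltf, differed by 0.27 and -0.95. None of 4 measured pan-leukocyte genes was called, and Ptprc, Cd52, Laptm5, Cd53 and Tyrobp were detected on neither array. None of 6 measured endothelial genes was called, with a median of -0.23. Kdr differed by -0.60, with a second probe at 0.05, and Esam by -0.15. The summed scaled signal of the endothelial list was 32.0 in Mob1DKO and 45.1 in WT. Most of that sum and of its gap came from the brighter Kdr probe, with levels of 4.63 and 5.23. The sum of the epithelial markers was likewise lower in Mob1DKO, at 6511 against 9469. Most of that gap came from its brightest genes, Scgb1a1 (-0.84) and Sftpc (-0.78), and 10 of the 15 markers differed below 0. The part of endothelial cells in the globin difference was not tested.

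**Figure D4:**
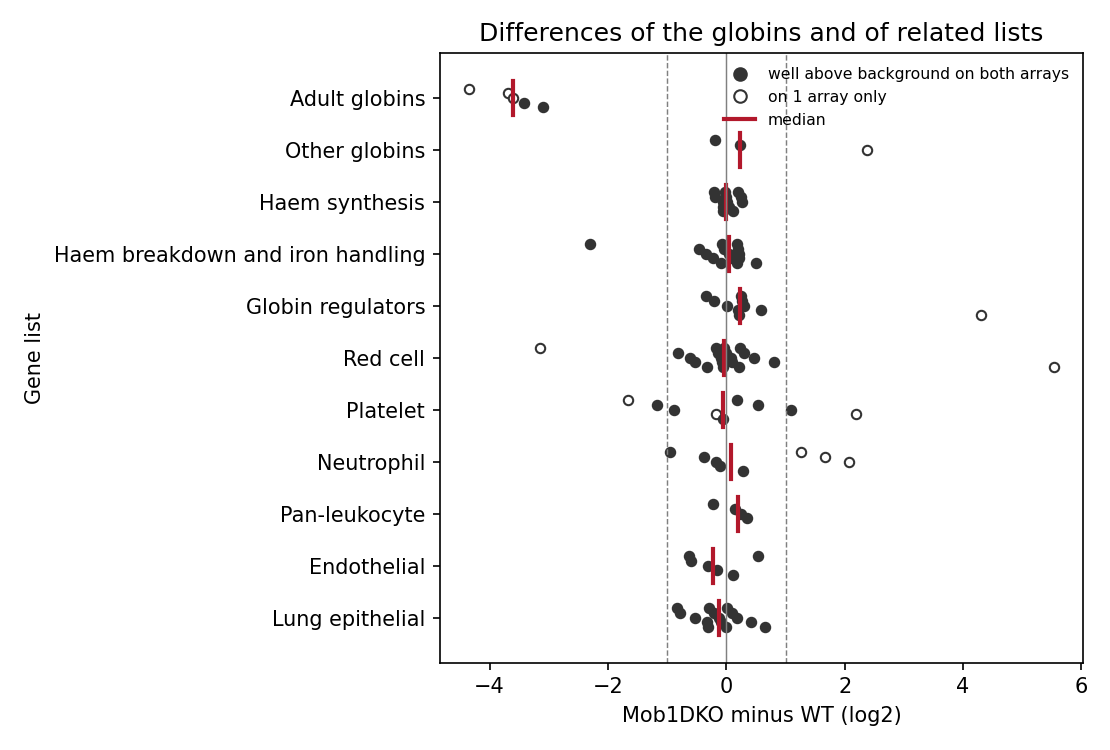
Difference Mob1DKO minus WT (log2) of each measured gene of the adult globins and of 10 gene lists; red bars are medians, filled points are detected on both arrays, open points on 1 array only (measured value, not bound), and dashed lines mark 2-fold. The 5 adult globins are drawn between -4.35 and -3.10, but the 3 beta globins have only bounds, of -4.28, -2.53 and -1.69, which include no measurement error. The medians of the other lists lie between -0.23 and 0.24.

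The genes most like the alpha globins were sought by the size of the difference alone, since 2 arrays allow no other likeness. Among genes detected on both arrays, with a level above 0 on at least 1 of them, those nearest to the alpha globin median of -3.26 were the glutathione transferase Gstm6 (-3.13), Mrgprf (-3.10), Fbxw13 (-3.09), the lysosomal phosphatase Acp2 (-3.43) and Iqcf1 (-2.94). The other Gstm6 probes differed by -2.97 and -2.46, the latter not well above background on the Mob1DKO array, whereas a second Acp2 probe differed by -0.61. None of these 5 genes belongs to the lists above.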

How the data were processed

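Each deposited scanner file holds linear intensity values for every spot, from Agilent Feature Extraction 10.7.1.1 per the file headers (9.5.1.1 per the submitters' processing notes), on a grid of build mm9. The processed signal is background-subtracted and detrended within the array, low values being set to a surrogate, with no scaling between arrays. The deposited series value table also holds intensity values; how it was made is not stated in the sources. It is linear and not centred, both columns have a median of 27.3, and 99.8% of Mob1DKO and 99.7% of WT values lay within 1% of a quantile normalization of the processed signal. Across probes, the log2 values of its columns and of the matching arrays had r = 0.9998 (Mob1DKO) and 0.9995 (WT), which fixes its direction.

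Spots of a probe were averaged, control spots were left out, and log2 signals were scaled on the 75th percentile. A probe was taken as detected if most of its spots carried the software's flag for well above background. Probes were named by unversioned RefSeq accession through a symbol table on assembly GRCm38.p6 (27235 of 55681 probes matched), and no genome coordinate was taken from it for the arrays. For genes with several probes, the brightest detected probe (mean of both arrays) was used. With 1 array per group no test was possible, and precision is limited by the number of arrays. The members and lists were chosen with earlier results of these data known. Named are all 6 members, up to 4 called and the 2 brightest genes of each list, Mob1a, Mob1b, 3 sex-linked genes, and the 5 genes nearest in difference to the alpha globin probes. Other list members are named where a count or sum needed them, and Slc4a1, Ermap and Dmtn as further red cell markers. Some list members are not reported here by name. Alternatives were other scalings (median, housekeeping genes, quantiles, loess with span 0.3, none, spike-ins), normexp on the median spot signal and local background with an offset of 50 (limma 3.58.1; the files used here have no mean-signal column), the series table, outlier spots left out, other rules for probes, filters and floors, and calls at 1.5-fold and 3-fold. The calling code was tested on simulated data. Python 3.11.15, pandas 2.3.3, Biopython 1.88 and R 4.3.3 were used.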

Additional observations from a re-analysis of the deposited data

How the results depend on the processing

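All 5 globins differed below 0 under each of 16 alternatives in which they were measured, from -4.36 to -0.93, and none was called higher. The count of 5 called became 2 when detection on both arrays was required, with or without bounds, and 2 with bounds and spike-in scaling. With no filter on dim probes it was 6, Alas2 being added although it is detected on neither array, and 5.85% of all genes were then called lower. The median of -3.61 became -3.26 with both arrays required, -3.10 with a floor, -2.70 without scaling, -2.18 with normexp and -1.43 with spike-ins, and stayed within the spot-to-spot SD of 0.34 under the other 11. Part of the shrinkage with normexp comes from its offset, which compresses faint signals. Against the spike-ins, 3 genes called lower turned: Mob1b (0.17), Pf4 (1.004) and Gp6 (0.50). This scaling adds 2.17 to every gene; relative to the median of all genes these 3 stayed below 0 under every alternative that measured them. With normexp, 5 genes called higher turned: Mb (-0.19), Ppbp (-0.18), Mpo (-0.039), S100a8 (-0.39) and S100a9 (-0.53). With a floor, S100a8 (-0.33) and S100a9 (-0.63) turned. Each of these 5 was detected in Mob1DKO alone. The list of other globins had a median from -0.19 (normexp) to 2.41 (spike-ins), and the red cell list from -0.14 to 2.12. Calls of the beta globins are limited by signal over background on the Mob1DKO array. No paired analysis was possible because each group has 1 array and the labels give no replicate numbers.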
